A study of Mus musculus with 6 samples.

Results

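The zinc finger genes of mouse chromosomes 7 and 13 were followed in ATAC-seq libraries of T follicular helper (Tfh) cells. Members were all peaks on these chromosomes whose deposited gene symbol starts with Zfp and a number, which gave 123 of 19109 genes and 386 of 282898 peaks. Chromosome 7 held 87 of the genes with 299 peaks, and chromosome 13 held 36 genes with 87 peaks. The symbol pattern does not test what a gene encodes: Zfp36, one of the chromosome 7 members, encodes an RNA-binding CCCH protein and not a DNA-binding zinc finger protein.

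The 6 libraries came from untreated C57BL/6 mice, 1 library for each genotype and sorted population: Stat6 knockout (KO) Tfh21, KO Tfh214 and KO Tfh4, and Stat6 wild-type (WT) Tfh21, WT Tfh214 and WT Tfh4. Stat6 encodes the transcription factor that acts downstream of the IL-4 receptor. The labels give 10 mice per genotype and 50000 cells per library, and do not give age, sex, the kind of Stat6 allele or the gates that define the populations. ATAC-seq counts fragments that a transposase cuts from accessible DNA, so its values concern accessible chromatin and not RNA. A higher value is not by itself more accessible chromatin, since it also depends on how the libraries are scaled.

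Most mammalian Zfp genes encode proteins with arrays of C2H2 zinc fingers that bind DNA. Many of these also carry a KRAB domain, which recruits the corepressor TRIM28 and, through it, the histone methyltransferase SETDB1 to silence chromatin, above all at transposable elements. KRAB zinc finger genes multiplied by local duplication and lie in tandem clusters, several of them on mouse chromosomes 7 and 13.

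The libraries held 1051120 reads in peaks in KO Tfh21, 798555 in KO Tfh214 and 1238585 in KO Tfh4, against 1122701 in WT Tfh21, 1271755 in WT Tfh214 and 1373218 in WT Tfh4. Values are counts per 1e6 of those reads (CPM). Peaks at transcription start sites took 36.4, 34.9 and 29.7% of reads in the KO libraries in that order, and 31.5, 31.0 and 27.6% in the WT libraries. At Stat6 itself 6 peaks summed to 54.2, 63.9 and 54.9 CPM in the KO libraries and 45.4, 54.3 and 42.2 CPM in the WT libraries. The peaks thus do not show the knockout, whose kind of allele is not given, and do not check the labels. Of 10 T cell and Tfh marker genes 9 had peaks, Trac being the exception, with sums of 396 to 569 CPM in KO and 430 to 488 CPM in WT libraries. B cell markers (5 of 7 with peaks, Ms4a1 and Cd79a at 0) summed to 106 to 127 CPM in KO and 111 to 164 CPM in WT libraries. Myeloid markers (5 of 5) summed to 37.1 to 55.7 CPM in KO and 52.7 to 56.8 CPM in WT libraries. Their part in the results was not tested.

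Promoter sequences are shown first, because most of the chromosome 13 members share a word in them. RefSeq promoters of build GRCm38.p6 matched 109 of the 123 members by symbol, 80 on chromosome 7 and 29 on chromosome 13. The 5 below belong to members whose start-site peak passed a test described later, and each shows the bases before the start site on the strand of the gene. Capitals mark the word ACTACANNTCCCA, here as its reverse complement, which Zfp954 and Zfp788 lack.
Zfp708, chr13:67081546-67081795, minus strand: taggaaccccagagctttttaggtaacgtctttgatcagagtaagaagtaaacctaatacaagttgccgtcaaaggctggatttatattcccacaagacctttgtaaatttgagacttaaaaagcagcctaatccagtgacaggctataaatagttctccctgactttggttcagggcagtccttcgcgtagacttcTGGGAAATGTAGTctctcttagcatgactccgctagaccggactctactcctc
Zfp85, chr13:67755203-67755452, minus strand: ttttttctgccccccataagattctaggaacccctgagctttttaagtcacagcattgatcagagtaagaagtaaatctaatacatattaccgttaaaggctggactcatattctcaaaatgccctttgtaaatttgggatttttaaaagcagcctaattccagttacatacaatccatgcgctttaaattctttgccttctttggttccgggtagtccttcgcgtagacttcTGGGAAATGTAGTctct
Zfp954, chr7:7121477-7121726, minus strand: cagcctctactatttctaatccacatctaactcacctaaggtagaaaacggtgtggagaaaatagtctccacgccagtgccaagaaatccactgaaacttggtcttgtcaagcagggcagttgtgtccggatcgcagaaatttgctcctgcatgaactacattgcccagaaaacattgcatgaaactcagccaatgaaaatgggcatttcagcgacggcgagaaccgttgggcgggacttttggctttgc
Zfp788, chr7:41633281-41633530, plus strand: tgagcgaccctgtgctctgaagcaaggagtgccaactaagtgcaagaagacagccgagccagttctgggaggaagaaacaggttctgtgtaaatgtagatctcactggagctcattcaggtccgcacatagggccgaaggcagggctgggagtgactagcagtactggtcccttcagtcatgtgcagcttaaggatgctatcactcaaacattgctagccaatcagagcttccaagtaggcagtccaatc
Zfp444, chr7:6172263-6172512, plus strand: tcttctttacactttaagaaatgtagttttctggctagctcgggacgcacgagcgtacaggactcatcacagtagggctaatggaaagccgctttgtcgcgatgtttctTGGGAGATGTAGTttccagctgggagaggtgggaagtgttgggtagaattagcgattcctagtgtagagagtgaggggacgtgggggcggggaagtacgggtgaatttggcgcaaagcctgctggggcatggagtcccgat

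The word ACTACANNTCCCA, searched on both strands, stood in 20 of 29 chromosome 13 promoters (69.0%) and 20 of 80 chromosome 7 promoters (25%). It stood in 9 of 188 promoters of Zfp genes on other chromosomes (4.79%) and in 437 of all 27025 promoters (1.62%). It was built after the sequences were seen from the commonest run of 12 bases in the members, with bases 7 and 8 free to vary and the commonest next base added. That run, ACTACATTTCCC, was in 37.9% of chromosome 13, 13.8% of chromosome 7 and 0.57% of all promoters. The word resembles the core of the motif known for ZNF143, an activator of promoters whose mouse gene, Zfp143, is itself one of the chromosome 7 members; the match is a description of letters and says nothing of binding here. All 20 chromosome 13 promoters with the word belonged to a single run of neighbouring genes, in which 21 of 24 genes had a promoter in the table and Zfp459 was the 1 promoter without it. Zfp65 and Zfp85os share 1 copy, since their promoters overlap, which leaves 19 distinct positions. Counted from the start site, the chromosome 13 copies began between positions -179 and -17, with a median of -55.0. The windows below, from members named in the results, are all written on the strand of the word with the word in capitals, first those of chromosome 13 and then those of chromosome 7.
Zfp458, chr13:67269149-67269185, plus strand: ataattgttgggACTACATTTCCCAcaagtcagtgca
Zfp712, chr13:67061203-67061239, plus strand: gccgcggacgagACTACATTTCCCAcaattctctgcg
Zfp273, chr13:67813736-67813772, minus strand: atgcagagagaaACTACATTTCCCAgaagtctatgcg
Zfp58, chr13:67500530-67500566, plus strand: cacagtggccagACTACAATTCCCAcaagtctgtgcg
Zfp738, chr13:67683545-67683581, plus strand: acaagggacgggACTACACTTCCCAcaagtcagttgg
Zfp595, chr13:67332588-67332624, plus strand: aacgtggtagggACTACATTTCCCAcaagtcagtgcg
Zfp874a, chr13:67451634-67451670, plus strand: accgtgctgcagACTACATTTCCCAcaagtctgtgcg
Zfp260, chr7:30095034-30095070, minus strand: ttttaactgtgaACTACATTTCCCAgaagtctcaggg
Zfp566, chr7:30090562-30090598, minus strand: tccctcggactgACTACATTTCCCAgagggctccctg
Zfp60, chr7:27731332-27731368, plus strand: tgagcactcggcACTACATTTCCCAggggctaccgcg
Zfp28, chr7:6383161-6383197, plus strand: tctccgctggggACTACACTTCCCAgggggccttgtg

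Promoter composition also differed, with a median GC content of 49.3% on chromosome 13 and 54.7% on chromosome 7, against 52.7% over all promoters. Of motifs searched on both strands, the STAT6 form (TTC and GAA with 4 bases between) stood in 6.9% of chromosome 13 and 6.25% of chromosome 7 promoters, against 6.99% of all. The shorter STAT form TTCNNNGAA stood in 16 of 29 chromosome 13 promoters (55.2%) and 16 of 80 chromosome 7 promoters (20%), against 8.47% of all. It overlapped the shared word in part: 14 of the 16 chromosome 13 promoters and 8 of the 16 chromosome 7 promoters had a match apart from it. The ETS core CCGGAAG was found in 31.0% and 23.8% of chromosome 13 and 7 promoters. Its share was 19.1% for Zfp genes on other chromosomes and 9.12% of all. The cAMP response element TGACGTCA was found in 17.2% and 1.25%, against 2.13% for Zfp genes on other chromosomes and 1.88% of all. Those other Zfp promoters had TTCNNNGAA in 9.57%, the STAT6 form in 7.98% and a median GC content of 56.0%. A stretch of 75 bases, the read length, was shared with another promoter of the table in 1 of 80 chromosome 7 members, Zfp772, and in 0 of 29 on chromosome 13. How the authors treated reads that map to several places is not given in the sources used here, and exons of these paralogs were not compared.

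Most of the members' reads, but not most of their peaks, lay at start sites. On chromosome 13 start-site peaks were 41 of 87 (47.1%) and held 90.4% of the members' reads. On chromosome 7 they were 106 of 299 (35.5%) with 77.3% of reads. Among all peaks with a symbol the share was 13.5% of peaks and 48.0% of reads, and among Zfp genes on other chromosomes 19.6% and 61.7%. Peaks at transcript ends made up 28 of 299 on chromosome 7 (9.36%) and 1 of 87 on chromosome 13 (1.15%), against 3.6% of all peaks with a symbol. On chromosome 7, 18 of 87 genes had a single peak, and on chromosome 13, 12 of 36.

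A start-site peak was listed for 33 of 36 chromosome 13 genes and 78 of 87 chromosome 7 genes. The chromosome 13 genes without one were Zfp366 with 64 reads in all, Zfp748 with 35 and Zfp85os with 11. Zfp366 (DC-SCRIPT) is known from dendritic cells. The RefSeq promoters of Zfp748 and Zfp85os hold the shared word. Of the 9 on chromosome 7, the most read were Zfp536 with 502 reads, Zfp296 with 66 and Zfp941 with 62. Zfp536, known as a brake on neuronal differentiation, had all of its 20 peaks away from start sites, the strongest of 220 reads in intron 5. Other members with many peaks outside start sites were Zfp710 with 22 and Zfp592 with 15 on chromosome 7. On chromosome 13 Zfp366 and Zfp346 had 5 each, and Zfp369, Zfp953 and Zfp748 had 3 each. Zfp346 (JAZ) binds double-stranded RNA, and Zfp592 is the mouse form of a human partner of ZMYND8.

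Start-site levels were more even on chromosome 13 than elsewhere. The strongest start-site peak of a gene had a median of 38.3 mean CPM per kb of peak over 33 chromosome 13 genes, with the middle 80% between 27.9 and 55.8, a ratio of 2.0. Over 78 chromosome 7 genes the median was 34.4 and the middle 80% ran from 10.7 to 54.3, a ratio of 5.09. Zfp genes on other chromosomes had a median of 32.3 and a ratio of 5.65 over 206 genes, and all 13799 genes with such a peak had 30.4 and 11. The chromosome 13 genes thus differed from the others chiefly in lacking a low tail, which the plot of start-site levels shows. This is a description of these genes, with no test.

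**Figure D1:**
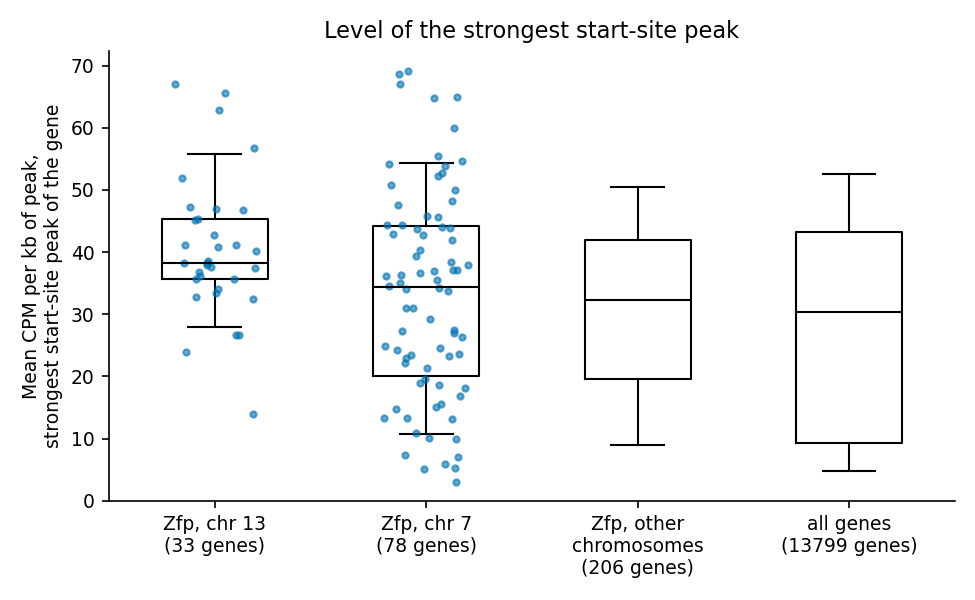
Mean CPM per kb of the strongest start-site peak of each gene over the 6 libraries; boxes give the quartiles and median, whiskers the 10th and 90th percentiles, and points single members. Chromosome 13 members have a median of 38.3 and few low values, while chromosome 7 members spread from 3.05 to 69.1.

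The most open start sites on chromosome 13 were those of Zfp367 (636 reads over the 6 libraries at its start-site peaks), Zfp369 (474), Zfp458 (322), Zfp708 (306), Zfp712 (300), Zfp825 (282), Zfp87 (280) and Zfp273 (255). Zfp367 had 105, 115 and 92.8 CPM in KO Tfh21, Tfh214 and Tfh4, against 86.4, 89.6 and 78.6 CPM in the WT libraries. Zfp369 (Nrif2), related to a p75 neurotrophin receptor partner, had 77.1, 86.4 and 70.2 CPM in KO and 65.9, 74.7 and 49.5 CPM in WT. Zfp369 overlapped between genotypes, while the 3 KO values of Zfp367 lay above its 3 WT values. On chromosome 7 the most open were Zfp788 (539 reads), Zfp78 (520), Zfp143 (509), Zfp444 (501), Zfp787 (425), Zfp446 (418), Zfp607b (385) and Zfp719 (350). Zfp143 had 84.7, 70.1 and 77.5 CPM in KO and 74.8, 71.6 and 67.7 CPM in WT libraries, which overlapped. Zfp36, which encodes the mRNA-destabilising protein tristetraprolin, had 17.1, 11.3 and 8.07 CPM in KO and 16.9, 10.2 and 7.28 CPM in WT libraries.

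Runs of at least 3 members within 1 Mb of each other held 76 of 87 chromosome 7 genes, in 8 runs, and 27 of 36 chromosome 13 genes, in 2 runs. The longest list was the chromosome 13 run from Zfp712 to Zfp273, with 24 genes in 0.753 Mb (mm9 chromosome 13, 67161845 to 67915006). Of these genes 22 had start-site peaks, with 88 reads (Zfp65) to 322 (Zfp458) and 23.9 to 56.8 mean CPM per kb. Start-site peaks stood at 39.8 per Mb there, against 6.35 per Mb on the whole chromosome, while other peaks were slightly sparser, at 90.3 against 101.0 per Mb. Such a density was not particular to this run. Start-site peaks in chromosome 7 runs stood at 7.09 to 68.9 per Mb, against 10.5 per Mb on that chromosome. Start-site reads in the chromosome 7 runs were less even. In the run from Zfp180 to Zfp526 start-site reads spread from 10 (Zfp114) to 330 (Zfp180), and in the run from Zfp788 to Zfp819 from 17 (Zfp976) to 539 (Zfp788).

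Summed over the chromosome 13 run, start-site peaks had 791.5, 735.1 and 691.1 CPM in the KO Tfh21, KO Tfh214 and KO Tfh4 libraries, against 654.7, 651.9 and 460.2 CPM in their WT counterparts. WT Tfh4 stood apart from the other 5 libraries. The KO over WT ratio was 1.21 in Tfh21 (95% exact binomial interval 1.09 to 1.34), 1.13 in Tfh214 (1.01 to 1.25) and 1.5 in Tfh4 (1.35 to 1.67). These intervals cover counting error only, not the spread between mice, and with 1 library per group the difference between populations was not tested. WT Tfh4 was the lowest of the 6 libraries at 21 of 22 genes of the run. The exception was Zfp455, with 21.9, 11.3 and 16.1 CPM in KO and 20.5, 14.2 and 12.4 CPM in WT. Over all 7989 genes with at least as many start-site reads (88) WT Tfh4 was the lowest at 47.5%, and over 138 such Zfp genes on other chromosomes at 59.4%. KO was above WT in Tfh21 at 20 of 22 genes of the run, against 80.0% of all, in Tfh214 at 12 of 22, against 71.9%, and in Tfh4 at 22 of 22, against 64.0%. The Tfh214 share was thus below that of all genes, and Zfp genes on other chromosomes stood at 74.6% in Tfh4.

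**Figure D2:**
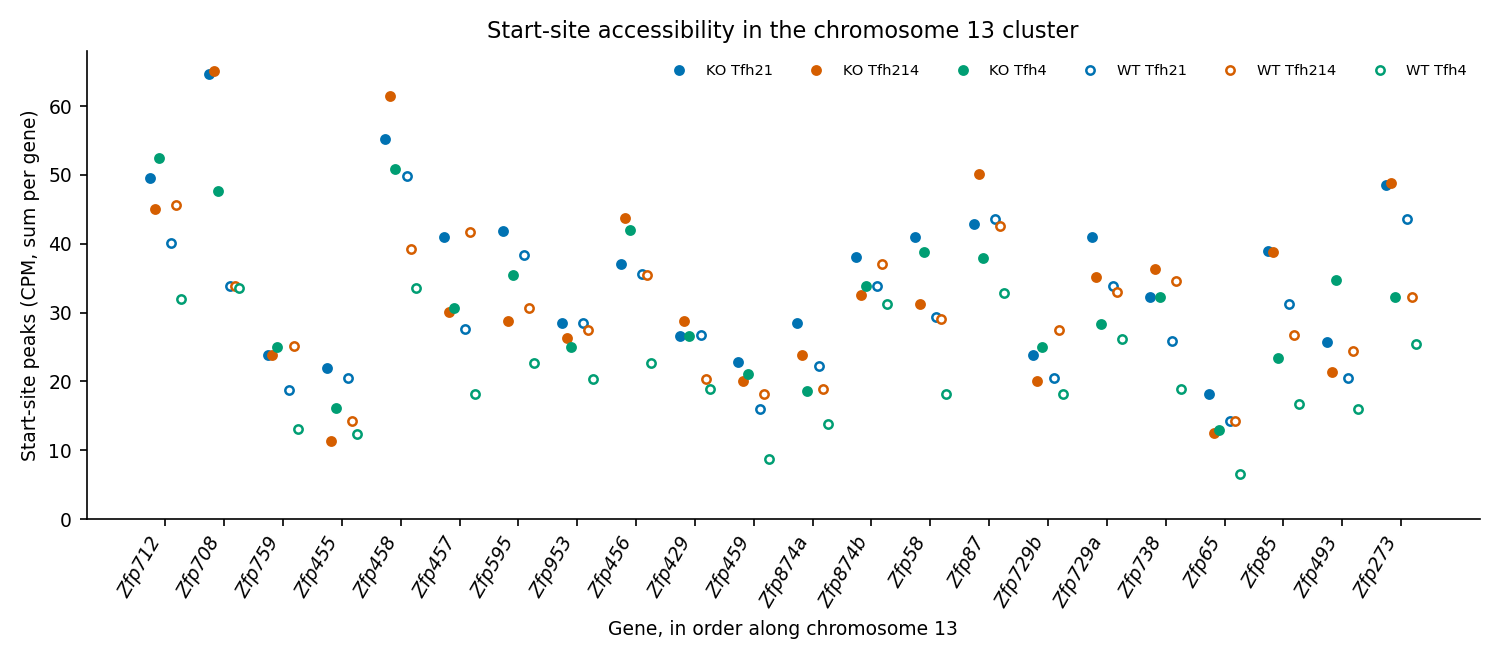
CPM summed over the start-site peaks of each gene in the chromosome 13 run, in the order of the genes; filled points are KO and open points WT, coloured by population. The open green points of WT Tfh4 are the lowest at 21 of 22 genes, and Zfp708 is the gene whose KO points stand clearest above its WT points.

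The same held for the tested peaks. A peak was tested where it had a mean of at least 20 reads, which 75 of 386 member peaks passed, 71 of them at start sites (29 on chromosome 13, 42 on chromosome 7). WT Tfh4 was the lowest library at 27 of 29 chromosome 13 start sites (93.1%) and 29 of 42 on chromosome 7 (69.0%). The exceptions on chromosome 13 were Zfp346, with 29.5, 22.5 and 17.8 CPM in KO and 24.0, 18.9 and 23.3 CPM in WT, and the main peak of Zfp708. Over all 8986 peaks tested the share was 54.5%, and over Zfp start sites on other chromosomes 63.2%. KO Tfh4 exceeded WT Tfh4 by at least 1.5-fold at 12 of 30 chromosome 13 peaks (40%) and 10 of 45 chromosome 7 peaks (22.2%), against 11.3% of all and 24 of 123 peaks of Zfp genes on other chromosomes (19.5%). It was lower by as much at 0 of 30 and 1 of 45, against 1.69%. In Tfh21 the count of higher peaks was 1 of 30 and 3 of 45, against 10.1%, and in Tfh214 4 of 30 and 3 of 45, against 7.27%.

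WT Tfh4 is also the library with the smallest share of reads at start sites, and a different scaling changes its values. When libraries were scaled by the median of ratios over strong peaks, WT Tfh4 was lowest at 17 of 29 chromosome 13 start sites (58.6%) and 17 of 42 on chromosome 7 (40.5%), against 29.9% of Zfp start sites on other chromosomes and 20.4% of all peaks. The 1.5-fold excess of KO Tfh4 then held at 9 of 30 chromosome 13 peaks (30.0%) and 6 of 45 chromosome 7 peaks (13.3%), against 8.13% of peaks of other Zfp genes and 4.96% of all. With a minimum mean of 40 reads it held at 3 of 9 chromosome 13 peaks (33.3%) and 0 of 17 chromosome 7 peaks, against 18.2% of peaks of other Zfp genes and 6.99% of all. Just inside the 1.5-fold limit on chromosome 13 stood Zfp458, with 63 reads in KO Tfh4 and 46 in WT Tfh4, and just outside it Zfp369, with 87 and 68.

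Over all chromosome 13 members, start-site reads gave a KO over WT ratio of 1.24 (1.19 to 1.3), made of 1.2 (1.11 to 1.3) in Tfh21, 1.15 (1.06 to 1.25) in Tfh214 and 1.43 (1.31 to 1.55) in Tfh4. Chromosome 7 members gave 1.17 (1.13 to 1.21), with 1.21, 1.15 and 1.16 in the 3 populations. Zfp genes on other chromosomes gave nearly the same, 1.15, with 1.18, 1.13 and 1.15. All genes gave 1.11, with 1.15, 1.13 and 1.07, so a KO excess at start sites was a feature of these libraries as a whole in all 3 populations. Single chromosome 7 runs differed in Tfh4, with no test between them. Zfp787 to Zfp772 gave 1.37 (1.19 to 1.58) and Zfp551 to Zfp446 gave 1.41 (1.17 to 1.69). Ratios in the runs that start at Zfp180, Zfp607b and Zfp771 were 0.918, 0.955 and 0.901, with intervals that include 1. The remaining chromosome 7 runs gave 1.16 to 1.29. On chromosome 13 the short run from Zfp808 to Zfp934 gave 1.66 (1.21 to 2.27) in Tfh4. Under median-of-ratios scaling the chromosome 13 ratios were 1.02 (0.94 to 1.1) in Tfh21, 1.03 (0.943 to 1.12) in Tfh214 and 1.27 (1.17 to 1.38) in Tfh4. Those of chromosome 7 were 1.02, 1.03 and 1.03, with intervals that include 1 in each population. Peaks away from start sites had a ratio of 0.886 (0.764 to 1.03) on chromosome 13 and 0.922 (0.864 to 0.984) on chromosome 7, against 0.96 for all genes.

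**Figure D3:**
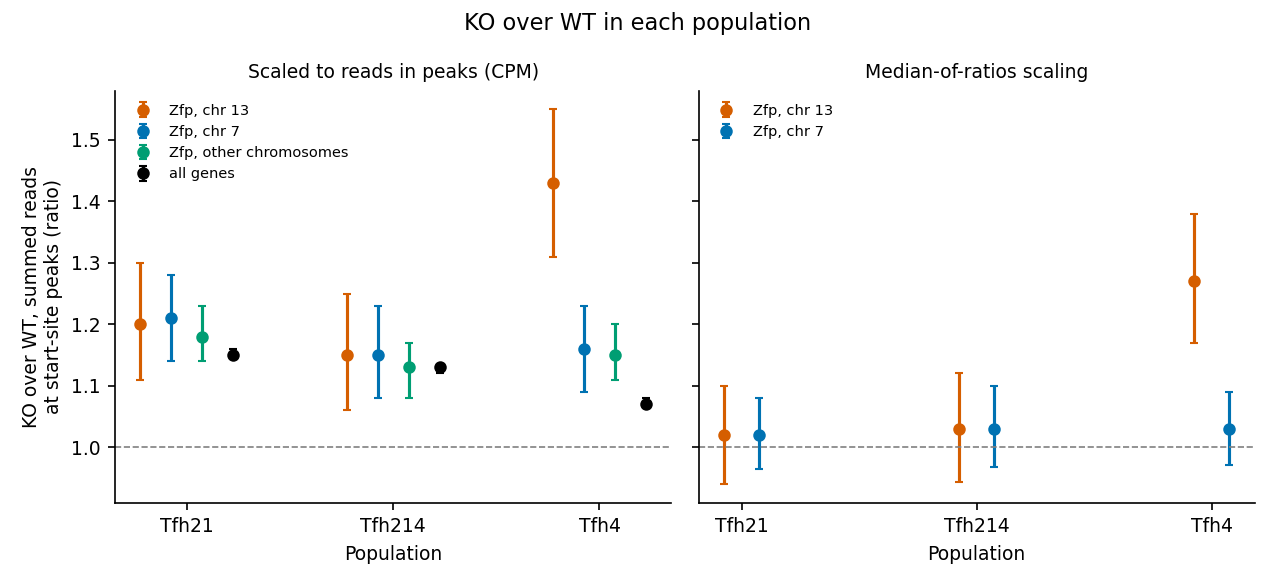
Ratio of KO to WT reads, scaled to library totals and summed over start-site peaks, by population, with exact binomial 95% intervals of counting error; the left panel uses reads in peaks as the total and the right panel median-of-ratios scaling. Chromosome 13 members in Tfh4 stand at 1.43 and 1.27 in the 2 panels, above all other points.

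KO was set against WT in 1 model over all 8986 tested peaks (limma with a variance trend on log2(CPM + 1), genotype plus population, 2 residual degrees of freedom, Benjamini-Hochberg adjustment, threshold 0.05). Its p-values measure residual spread over the populations, not over mice, and the genotypes also differ in their mice and in their library preparations, which cannot be told apart from genotype. Changes below are KO minus WT on the log2(CPM + 1) scale, ± SE. Of the 75 member peaks 1 passed as higher in KO, where 0.857% of all tested peaks did, and 0 passed as lower, where 0.0% did. That share of members is near the background.

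The peak that rose was at the start of Zfp708 (mm9 chromosome 13, 67181702 to 67182741), which encodes a KRAB protein known in mouse to silence RMER19B retrotransposons. It had 59.0, 62.6 and 39.6 CPM in KO Tfh21, Tfh214 and Tfh4, against 31.2, 31.5 and 31.3 CPM in the WT libraries. All KO values lay above all WT values, and the WT values were nearly alike. The change was 0.73 ± 0.15 (limma adjusted p = 0.0123). Leaving out KO Tfh21 or WT Tfh21 ended the call (limma adjusted p = 0.38 and 0.361). These fits are the same check, because a library without its partner is fitted by its own population term. For KO against WT, leaving out either library of a population thus gives the same change, with fewer residual degrees of freedom. Median-of-ratios scaling also ended the call, with 0.55 and limma adjusted p = 0.491. Without the variance trend the limma adjusted p was 0.286, and edgeR and DESeq2 gave 1.0. Summed over both start-site peaks, Zfp708 had 64.7, 65.1 and 47.6 CPM in KO and 33.8, 33.8 and 33.5 CPM in WT, a ratio of 1.72 (1.36 to 2.18).

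The other large changes did not pass. The largest of all tested member peaks was at the Zfp260 start site on chromosome 7, which had 22.8, 27.5 and 25 CPM in KO and 16.9, 14.9 and 12.4 CPM in WT, 0.74 ± 0.23 (limma adjusted p = 0.0789). Zfp260 encodes a C2H2 protein without a KRAB domain, studied in heart muscle. Zfp322a, a pluripotency factor of embryonic stem cells, had 39.0, 45.1 and 28.3 CPM in KO and 27.6, 29.1 and 16.7 CPM in WT, 0.61 ± 0.17 (limma adjusted p = 0.0619). Zfp58, in the chromosome 13 run, had 40.9, 31.3 and 38.8 CPM in KO and 29.4, 29.1 and 18.2 CPM in WT, 0.54 ± 0.18 (limma adjusted p = 0.0895). Without either Tfh214 library Zfp58 passed, at 0.76 (limma adjusted p = 0.02 and 0.0211), and without either Tfh4 library it was at 0.28. Zfp975 had 20, 22.5 and 21.8 CPM in KO and 16.0, 20.4 and 9.47 CPM in WT, 0.52 ± 0.24 (limma adjusted p = 0.208). KO and WT values did not overlap for Zfp260 and Zfp58. They did for Zfp322a, where KO Tfh4 fell below WT Tfh214, and for Zfp975, where KO Tfh21 did.

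Start-site changes of 29 chromosome 13 peaks had a median of 0.32 and all 29 were above 0. On chromosome 7 the median was 0.24 with 40 of 42 above 0, Zfp688 at -0.02 and Zfp84 at -0.01 being the others. Over all tested peaks the median was 0.19 and 85.9% were above 0. Zfp start sites on other chromosomes had a median of 0.21, and start sites of other genes 0.18 on chromosome 13 and 0.17 on chromosome 7. Median-of-ratios scaling brought the median of all peaks to 0.00 with 51.0% above 0. It brought that of the chromosome 13 start sites to 0.14 with 22 of 29 above 0, and of chromosome 7 to 0.06 with 31 of 42 above 0. On CPM, KO exceeded WT in each of the 3 populations at 42 of 75 member peaks (56.0%). The share was 48.0% for peaks of Zfp genes on other chromosomes and 41.5% of all. KO was below WT in each at 0 of 75, against 1.63% for those other Zfp genes and 1.7% of all. All 3 KO libraries lay above all 3 WT libraries at 11 of 75 (14.7%), against 13.4%. Start-site sums also cover genes under the read minimum. There KO was below WT in each population for Zfp939, Zfp82, Zfp940, Zfp768, Zfp974, Zfp819 and Zfp93. All are on chromosome 7, and all were under that minimum. Only Zfp939 had all KO values below all WT values. It had 10.5, 11.3 and 13.7 CPM in KO and 17.8, 17.3 and 17.5 CPM in WT, a ratio of 0.684 (0.444 to 1.04). The share over all genes is not given for these sums. These members were picked after their values were seen.

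**Figure D4:**
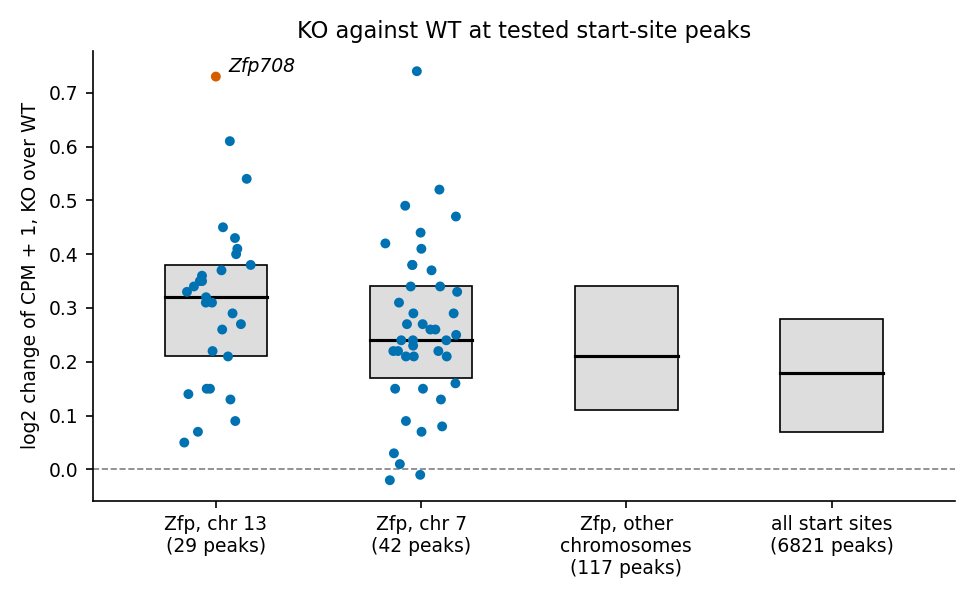
Change of each tested start-site peak between KO and WT on the log2(CPM + 1) scale; boxes give quartiles and median, points the members, and the orange point the called peak of Zfp708. All 29 chromosome 13 points lie above 0, around a median of 0.32, against 0.18 for all start sites.

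Zfp180 on chromosome 7, a KRAB gene with the shared word in its promoter, had 56.1, 53.8 and 40.4 CPM at its start site in KO and 45.4, 47.2 and 48.8 CPM in WT, 0.07 ± 0.14 (limma adjusted p = 0.769). Its peak in coding exon 3 had 7.61, 10.0 and 5.65 CPM in KO and 3.56, 1.57 and 18.9 CPM in WT, with the highest and the lowest values both in WT libraries. That peak was under the read minimum and was not tested.

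Tfh4 was then set against Tfh21 in the same model, with genotype as the block. Of 75 member peaks 4 passed as lower in Tfh4, where 1.31% of all tested peaks did, and 0 as higher, where 0.0% did. The start site of Zfp788, the most read on chromosome 7, had 74.3 CPM in KO Tfh4 and 56.8 in WT Tfh4, against 106 in KO Tfh21 and 81.9 in WT Tfh21, a change of -0.51 ± 0.13 (limma adjusted p = 0.0342). Zfp444, whose human form is known as a SCAN zinc finger activator of endothelial genes, had 66.2 and 55.3 CPM in KO and WT Tfh4, against 93.2 and 81.1 CPM in KO and WT Tfh21, -0.51 ± 0.13 (limma adjusted p = 0.0361). In both genes the 2 Tfh4 libraries lay below the 2 Tfh21 libraries. Zfp954 had 42.8 and 29.1 CPM in KO and WT Tfh4, against 57.1 and 51.7 CPM in KO and WT Tfh21, -0.61 ± 0.16 (limma adjusted p = 0.0436). Zfp85, the 1 called peak from the chromosome 13 run, had 23.4 and 16.7 CPM in KO and WT Tfh4, against 39.0 and 31.2 CPM in KO and WT Tfh21, -0.79 ± 0.22 (limma adjusted p = 0.0482). Under median-of-ratios scaling these changes were -0.23 for Zfp788, -0.24 for Zfp444, -0.33 for Zfp954 and -0.51 for Zfp85, each with limma adjusted p = 1.0, and the count was also 0 without KO Tfh21, WT Tfh21 or WT Tfh4. Without KO Tfh4, Zfp444 and Zfp85 missed the threshold (limma adjusted p = 0.0515 and 0.0771).

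The members followed the whole set in this comparison. Their median was -0.32 with 70 of 75 below 0 and 5 above, and that of all peaks -0.27 with 92.1% below 0 and 7.87% above. Both Tfh4 libraries lay below the Tfh21 library of their genotype at 55 of 75 (73.3%), against 71.5%. Median-of-ratios scaling left 44 of 75 members below 0, with a median of -0.05. Just past the threshold stood Zfp273, at -0.66 ± 0.19 (limma adjusted p = 0.0503). Zfp808 and Zfp607a were at -0.66 (limma adjusted p = 0.106 and 0.13) and Zfp667 at -0.64 (limma adjusted p = 0.0954). The 5 peaks above 0 were those of Zfp493 and Zfp688 at 0.04, Zfp324 and Zfp128 at 0.03 and Zfp729b at 0.01, all within their SE of 0.23 to 0.27.

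**Figure D5:**
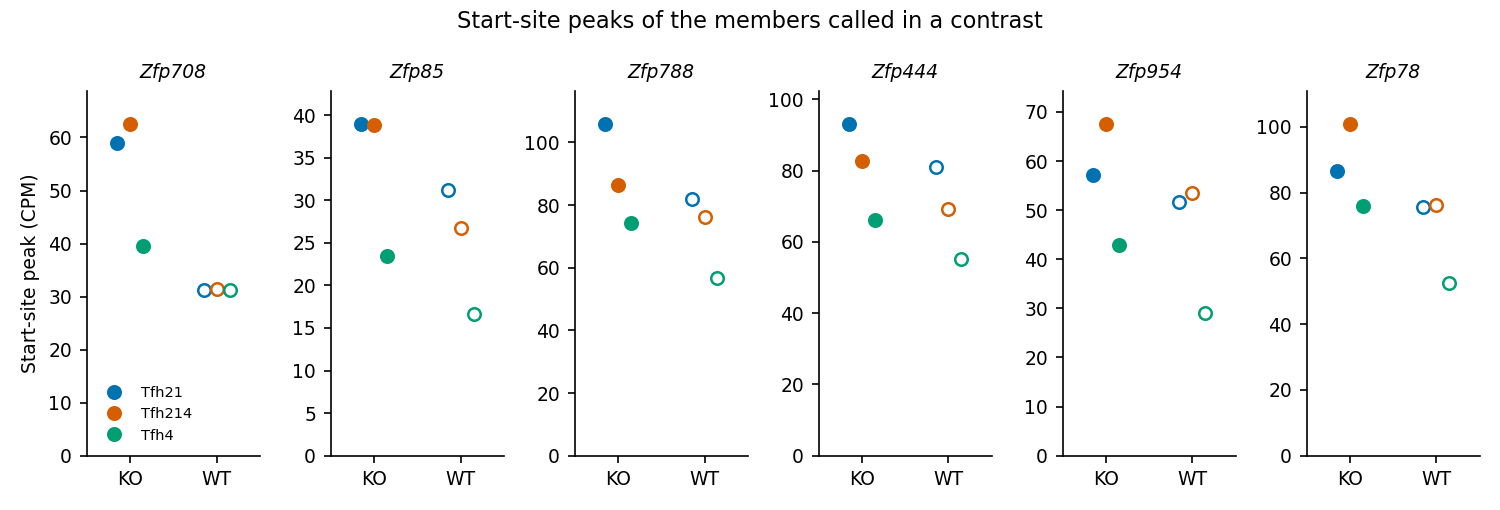
CPM at the strongest start-site peak of the 6 members called in a comparison; filled points are KO and open points WT, coloured by population. Zfp708 separates by genotype, with WT values of 31.2 to 31.5, while in the other 5 the green Tfh4 point is the lowest of each genotype.

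Tfh4 against Tfh214 gave 2 of 75 member peaks as lower, where 1.98% of all tested peaks were, and 0 as higher, where 0.0% were. Zfp954 had 42.8 and 29.1 CPM in KO and WT Tfh4, against 67.6 and 53.5 CPM in KO and WT Tfh214, -0.75 ± 0.16 (limma adjusted p = 0.0217). Zfp78 had 75.9 and 52.4 CPM in KO and WT Tfh4, against 101 and 76.3 CPM in KO and WT Tfh214, -0.47 ± 0.13 (limma adjusted p = 0.0401). For Zfp78, KO Tfh4 and WT Tfh214 were nearly alike. Both calls ended under median-of-ratios scaling (limma adjusted p = 0.573 and 0.917). Zfp954 lost its call without KO Tfh21, WT Tfh21, WT Tfh214 or WT Tfh4, with changes of -0.9 to -0.6 over single left-out libraries. Leaving out either Tfh21 library is the same check here. Zfp78 lost it without any library other than KO Tfh4, with limma adjusted p = 0.12 to 0.206. Further falls that did not pass were Zfp322a at -0.71 (limma adjusted p = 0.0573), Zfp85 at -0.67, Zfp28 at -0.58 and Zfp60 at -0.57. The highest values were Zfp688 at 0.14, the less read of 2 tested Zfp607b start-site peaks at 0.12, Zfp493 and Zfp566 at 0.05 and Zfp784 at 0.03. Tfh4 was below Tfh214 in both genotypes at 47 of 75 member peaks (62.7%), against 60% of all. This comparison shares its Tfh4 libraries with the one against Tfh21.

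Tfh214 against Tfh21 gave 0 of 75 member peaks in limma, where 0.0% of all tested peaks passed in either direction, with 1 of 75 at an unadjusted p under 0.05, against 3.84% of all, and 0 in edgeR and DESeq2. The members' median of -0.04 equalled that of all peaks, of which 58.2% were below 0 and 41.8% above. The largest positive values were Zfp507 at 0.33, Zfp141 at 0.30, Zfp738 at 0.29, and Zfp324 and Zfp825 at 0.27. The largest negative ones were Zfp595 at -0.42, Zfp771 at -0.39, Zfp607a at -0.36, Zfp346 at -0.35 and Zfp874a at -0.32, with SE of 0.18 to 0.28 and limma adjusted p = 1.0 for each.

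Sums over all peaks of a gene gave 0 calls among 80 tested members in each of the 4 comparisons, where 0.00924% of 10825 genes passed as higher and 0.0462% as lower in KO, and 0.0% in the other comparisons. At an unadjusted p under 0.05 there were 13 members for KO against WT (16.2%, against 11.1% of all gene sums), 12 for Tfh4 against Tfh21 (15%, against 12.7%), 2 for Tfh214 against Tfh21 (2.5%, against 5.1%) and 9 for Tfh4 against Tfh214 (11.2%, against 10.1%). Both edgeR and DESeq2 gave 0 calls throughout. Zfp708 came nearest, at 0.76 ± 0.16 for KO against WT (limma adjusted p = 0.0691). From start-site peaks alone, where 1.02% of 7087 genes passed as higher in KO and 1 of 72 tested members did, its sum changed by 0.78 ± 0.14 (limma adjusted p = 0.000364), which median-of-ratios scaling brought to 0.59 (limma adjusted p = 0.158). Tfh4 against Tfh21 then gave 5 calls, the 4 peaks above and Zfp273, of 72 members (6.94%), against 3.13% of all genes and 8.2% of Zfp genes on other chromosomes. Tfh4 against Tfh214 gave 2 (2.78%), against 2.2% of all.

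The partners of KRAB proteins were read from a list of corepressor genes. Of their peaks 17 were tested, Trim28 and the HUSH genes Fam208a and Mphosph8 among them, but none of Setdb1 or the HP1 genes. For KO against WT 0 passed in limma, with 3 at an unadjusted p under 0.05 (17.6%, against 21.0% of all peaks), and 0 passed under median-of-ratios scaling. Their median change was 0.10, against 0.26 for the members and 0.19 for all peaks, and under median-of-ratios scaling it was -0.08, against 0.08 for the members. Trim28, on chromosome 7, was at 0.25 ± 0.10 (limma adjusted p = 0.161) and Morc2a at 0.36 ± 0.14 (limma adjusted p = 0.147). For Tfh4 against Tfh21 1 of 17 passed as lower, where 1.31% of all tested peaks did: the start site of Fam208a, which encodes the HUSH subunit TASOR, at -0.63 ± 0.15 (limma adjusted p = 0.0331). Under median-of-ratios scaling it was at -0.36 (limma adjusted p = 1.0). The list's median there was -0.30.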

How the data were processed

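ATAC-seq was measured in 6 libraries, 1 per genotype and population, with tagmentation for 30 min at 37 °C and paired reads of 75 bases, per the labels. The submitters' processing notes name Bowtie 1.3.0, MACS2 2.0, HOMER and mm9, with no roles. The authors deposited 1 table of annotated peaks in CPM, scaled to reads in peaks. CPM steps gave whole reads for at least 99.9989% of values (tolerance 0.02 reads).

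Reads were recovered from those steps and log2(CPM + 1) was computed from the deposited CPM. limma 3.58.1 (R 4.3.3) was fitted over all features with a mean of at least 20 reads, 8986 peaks or 10825 gene sums, and checked on simulated data. The simulated peak counts had no spread between libraries beyond counting error and no shift in the share of start-site reads. The check therefore does not cover the fit where libraries differ in these ways, as the real ones do. edgeR 4.0.16, DESeq2 1.42.0, other scalings, pseudocounts, minimums, terms and left-out libraries were the alternatives. Named members were Zfp708, Zfp180 and Zfp36, the 8 with most start-site reads per chromosome, all called ones, the 5 largest changes each way per comparison, the 3 with most other peaks and the 3 most read without a start-site peak. Zfp939, the other members with KO below WT in each population, Zfp455 and examples from the runs were chosen after their values were seen. Ratios of summed reads have exact 95% binomial intervals. Members, lists, the variance trend and the read minimum were chosen with earlier results of these data known. Figures used matplotlib 3.10.9.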

Additional observations from a re-analysis of the deposited data

How the results depend on the processing

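Each genotype and population had 1 library, so there were no replicates within a group. Libraries were matched across groups by a term of the model, population when genotypes were compared and genotype when populations were. Counts of called member peaks, 1 for KO against WT, 4 for Tfh4 against Tfh21 and 2 for Tfh4 against Tfh214, were each 0 under median-of-ratios scaling, without the variance trend, without the block for the other factor, in edgeR and in DESeq2. Without a read minimum the last 2 comparisons gave 0, and with a minimum mean of 10 reads they gave 2 and 1. KO against WT gave 4 with a minimum of 40 reads, 0 without both Tfh21 libraries and 2 without both Tfh214 libraries. Leaving out single libraries gave 0 to 4 calls for KO against WT, 0 to 6 for Tfh4 against Tfh21 and 0 to 4 for Tfh4 against Tfh214. Gene sums for KO against WT gave 1 call, in place of 0, under median-of-ratios scaling, with no read minimum, without both Tfh4 libraries and from start-site peaks only, and 0 to 1 without single libraries. Over all 10825 gene sums 3 passed as higher and 252 as lower in KO under median-of-ratios scaling. Their median was then -0.11, so that scaling did not centre gene sums. Of all 8986 tested peaks 2 passed for KO against WT under it, and 0 for both Tfh4 comparisons. Start-site sums gave 5 calls for Tfh4 against Tfh21, against 3.13% of all genes. They gave 2 for Tfh4 against Tfh214, against 2.20%. Shares over all features are not given for the other alternatives of this paragraph.

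The KO over WT ratio of all reads was 1.11 on chromosome 7. It was 0.975 under median-of-ratios scaling, 1.17 at start sites, 1.03 at start sites with that scaling, and 1.06 to 1.17 without single libraries. On chromosome 13 it was 1.2, and 1.06 under median-of-ratios scaling, 1.1 at start sites with that scaling, 1.14 without both Tfh4 libraries and 1.09 to 1.27 without single libraries. The combined setting and the left-out libraries of these ratios, and the alternatives to the 1.5-fold counts, were chosen after seeing the data. The 1.5-fold count in Tfh4 was 10 on chromosome 7, 6 under median-of-ratios scaling and 0 with a minimum of 40 reads, and on chromosome 13 it was 12, and 3 with that minimum.

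Of 645 alternative values for 41 named changes, 544 kept their direction and side of the threshold, 70 lost the call, 8 gained it and 23 changed sign. The 645 are not all separate checks. For KO against WT, leaving out either library of a population, or both, gives the same change. Most of the 41 changes were never called. Only the called ones could lose a call: 1 for KO against WT, 4 for Tfh4 against Tfh21 and 2 for Tfh4 against Tfh214. Most of the 544 values thus belong to changes that were not called, and that total does not describe how stable the calls were. Without both Tfh4 libraries KO against WT was 0.21 for Zfp688 and 0.09 for Zfp84. Without single libraries it ran from -0.17 to 0.21 for Zfp688 and from -0.07 to 0.09 for Zfp84. Tfh4 against Tfh21 then ran from -0.23 to 0.25 for Zfp729b, -0.46 to 0.55 for Zfp493, -0.31 to 0.39 for Zfp688, -0.22 to 0.27 for Zfp128 and -0.11 to 0.17 for Zfp324. Tfh214 against Tfh21 ran from -0.91 to 0.13 for Zfp771. Tfh4 against Tfh214 ran from -0.45 to 0.56 for Zfp493, -0.21 to 0.49 for Zfp688 and -0.57 to 0.64 for Zfp784. The cause was not tested. Depth limits the tests to 75 of 386 member peaks.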
